A study of Mus musculus with 8 samples.

Results

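The Nrf2 antioxidant system was followed through 10 genes in MIN6, a β-cell line that came from a mouse pancreatic tumour and makes insulin, with and without forced expression of the transcription factor Klf4. The members are Nfe2l2, Keap1, Nqo1, Hmox1, Gclc, Gclm, Txnrd1, Srxn1, Slc7a11 and Gsr, and each symbol matched 1 of the 55536 gene rows of the count table, so that all 10 were found and all 10 passed the filter on low counts. Control cells, labelled wild type, were transfected with pcDNA 3 as empty vector. Cells of the other group, of the same line and genotype, were given pGloMyc-Klf4, and both transfections ran for 48 h with a lipid reagent. Each group had 4 biological replicates, with replicates 1 and 2 labelled batch 1 and replicates 3 and 4 labelled batch 2. The share of cells that took up plasmid and the promoter driving Klf4 are not given in the sources used here, the plasmids differ in backbone as well as in insert, and what distinguishes the batches is not stated. Islets are named as the RNA source in the extraction protocol, while every other label gives the cell line. RNA came from whole cultures, so that a lower level in every cell and fewer cells with the RNA cannot be told apart.

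Nrf2, encoded by Nfe2l2, is a transcription factor that is held in the cytoplasm and passed to degradation by its partner Keap1. Oxidants and electrophiles modify Keap1, Nrf2 then accumulates, enters the nucleus and binds, with small Maf proteins, to antioxidant response elements near genes for glutathione synthesis, thioredoxin recycling, quinone reduction and haem breakdown. Pancreatic β-cells are known for low levels of some antioxidant enzymes, catalase among them, which is why this system is followed in islet work.

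The response element and the motif bound by Klf4 and related factors were looked for in promoter sequences, because both factors bear on the comparison. RefSeq windows of the GRCm38.p6 build, running from 250 bases before to 50 bases after a transcription start, were held for 7 members in 9 windows. Hmox1, Gclc and Gsr were not matched. On both strands, the element core TGACNNNGC was found in a window of 4 members (Nfe2l2, Gclm, Txnrd1 and Srxn1), against 14% of all 27025 genes with a window. The KLF motif CCNCNCCC was found for 6 of the 7 members, all but Slc7a11, against 51.9% of all genes. Matches of one motif did not overlap matches of the other in these windows. The stretches below show the 3 element cores that lie before a start, and the KLF matches of Nqo1 and Nfe2l2, the members of largest rise and the gene of Nrf2 itself. Each reads 5′ to 3′ along the gene, with the matched letters in capitals. In Gclm and Txnrd1 the core lies on the opposite strand, so the capitals are its reverse complement.
Nfe2l2 element core, first base at -240, chr2:75704880-75704913, minus strand: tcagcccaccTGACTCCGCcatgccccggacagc
Gclm element core, first base at -134, chr3:122245408-122245446, plus strand: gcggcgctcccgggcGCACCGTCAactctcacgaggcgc
Txnrd1 element core in 1 of its 3 windows, first base at -92, chr10:82859099-82859137, plus strand: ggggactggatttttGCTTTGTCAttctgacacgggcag
Nqo1 KLF match, first base at -81, chr8:107403264-107403301, minus strand: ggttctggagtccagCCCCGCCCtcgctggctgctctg
Nfe2l2 KLF match, 1 of 4 in its window, first base at -18, chr2:75704664-75704696, minus strand: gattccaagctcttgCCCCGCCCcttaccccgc
A match here is a run of letters, not a measured binding site, and no binding was measured in these samples. Of the members with a core in the window, Nfe2l2 rose, Gclm and Txnrd1 fell and Srxn1 did not pass the test, as given below. Elements outside these windows were not looked for, and the part of either motif in the changes was not tested.

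Total counts ran from 47017647 to 49504167 in control and from 45417853 to 52731176 in Klf4-transfected libraries. Klf4 itself checked the labels, with 36.1 to 42.8 CPM (counts scaled by TMM to a common library size) in control and 4532 to 5853 CPM in Klf4-transfected libraries. The 12 listed β-cell markers, none of them at 0, summed to 31878 to 39939 CPM in control and 29823 to 40243 CPM in Klf4-transfected libraries, and 5 of them were called lower and none higher. Summed fibroblast markers went from between 4.41 and 5.65 CPM to between 24.1 and 30.8 CPM with no overlap of the groups, with 4 of 5 tested markers called higher, most of the sum in Dcn (14.2 to 21.3 CPM), Lum at 0 in every library and Col3a1 at most 0.0581 CPM. Endothelial markers, with 2 of 4 tested called higher, went from between 13.6 and 17 CPM to between 18.7 and 21.6 CPM, while Kdr had at most 0.0387 CPM. All 4 tested endothelial markers were above control, with log2 ratios from 0.13 to 7.31 and a median of 0.55. Acinar and ductal markers ran from 1.54 to 4.24 CPM in control and from 4.33 to 7.17 CPM in Klf4-transfected libraries, with 1 of 2 tested called higher, Krt19, and Prss2 at 0 throughout. Macrophage markers (6.2 to 6.75 and 6.03 to 7.69 CPM), δ- and PP-cell markers (1.74 to 2.2 and 1.88 to 2.5 CPM) and α-cell markers (589 to 710.4 and 603 to 705 CPM) overlapped between the groups in their sums, with 2 of 4 tested α-cell markers called higher. The 4 tested α-cell markers had log2 ratios from -0.06 to 6.37, with a median of 0.72. Since 3 of the 6 α-cell markers stayed under 1 CPM in every library, their sum shows little of these 3. Mitochondrially encoded genes took 4.05% to 4.33% of control counts and 3.78% to 4.32% of counts after Klf4. The counts of called markers stand beside 36.6% of all tested genes called, 21.1% higher and 15.5% lower. The part of these markers in the results below was not tested.

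Per kilobase of exon, the members spanned a wide range of levels in control cells. Txnrd1 was highest at 64.2 ± 3.67 CPM per kb (SD, n = 4), followed by Srxn1 at 46.2 ± 1.69 and Gsr at 36.1 ± 2.19 CPM per kb. Hmox1 (21.5 ± 0.233), Keap1 (21.3 ± 0.779) and Gclm (19.4 ± 1.34 CPM per kb) came next, and each overlapped its neighbour in this order. Nfe2l2 stood at 14.3 ± 1.29 and Gclc at 12.8 ± 0.822 CPM per kb, again with overlapping libraries. Nqo1, at 6.63 ± 6.09 CPM per kb, had a standard deviation close to its mean, and only its highest library reached the range of Gclc. Slc7a11 was lowest at 0.166 ± 0.0365 CPM per kb, with 81 to 137 counts in each control library. Neighbours not named as overlapping had no libraries in common.

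In all, 7 members changed at an adjusted p under 0.05 (edgeR's quasi-likelihood test with a term for batch and Benjamini-Hochberg adjustment over all 18266 tested genes), which is called changed in what follows. Nqo1, Nfe2l2 and Gsr rose. Txnrd1, Gclm, Hmox1 and Gclc fell. Keap1, Srxn1 and Slc7a11 did not pass. This share of 7 of 10 stood beside 36.6% of all tested genes called, with 3 of 10 higher beside 21.1% and 4 of 10 lower beside 15.5%. The median log2 ratio of the 10 was -0.08, beside -0.01 over all tested genes, and the median size of change was 0.17, beside 0.13. Apart from Nqo1 and Slc7a11, no member's point estimate exceeded 0.21 in size on the log2 scale.

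**Figure D1:**
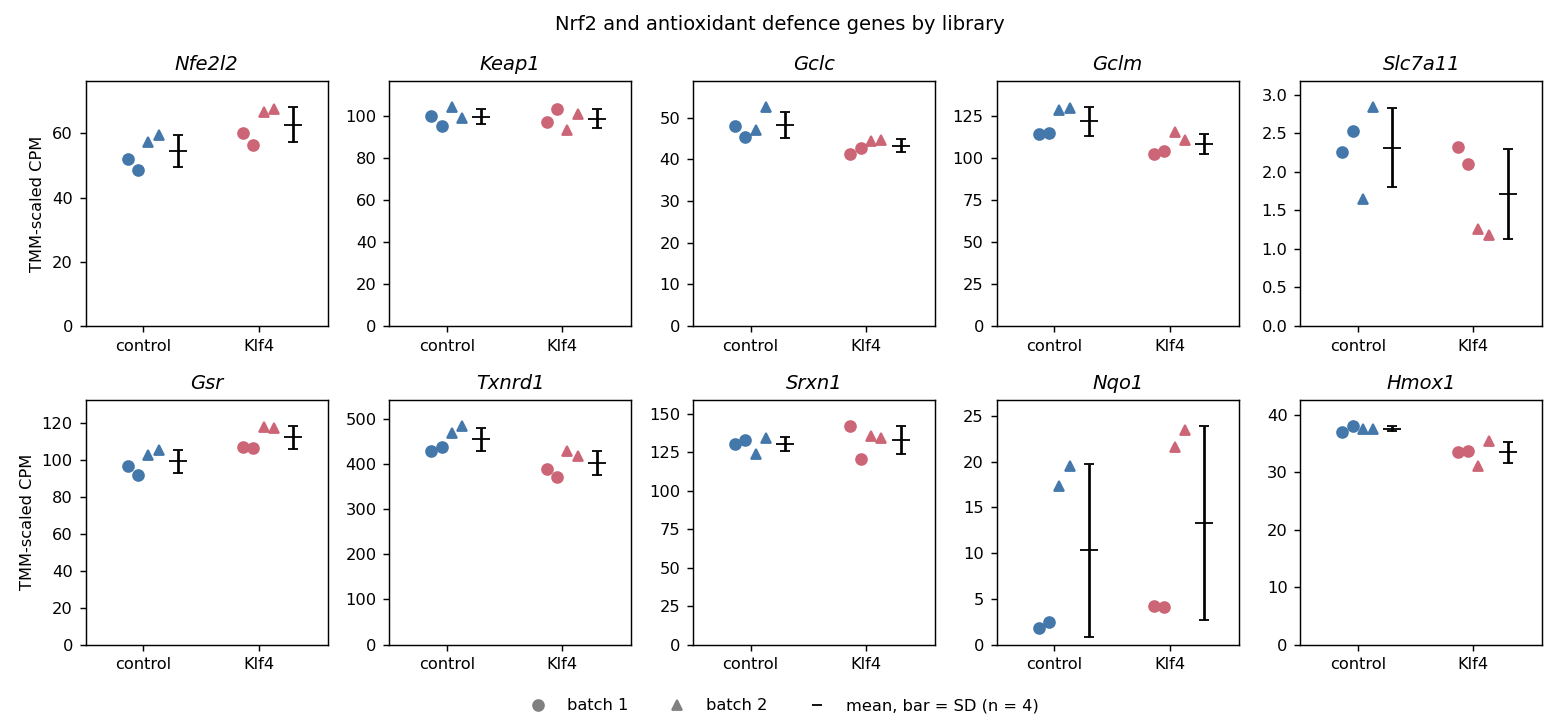
Each panel shows 1 gene, with TMM-scaled CPM on a linear axis from 0, circles for batch 1, triangles for batch 2, blue for control and red for Klf4-transfected libraries, and the black bar the mean ± SD of 4 libraries. Gsr, Hmox1 and Gclc are the 3 genes whose groups do not overlap, which also holds for 26.1% of all tested genes. Nqo1 separates by batch, from 1.83 to 4.2 CPM in batch 1 and from 17.4 to 23.4 CPM in batch 2.

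Of the regulators, the gene of Nrf2 rose and that of its inhibitor did not pass the test. Nfe2l2 (ENSMUSG00000015839, chromosome 2, 75675513 to 75704641, minus strand, GRCm38) had 52.2, 48.7, 57.5 and 59.5 CPM in control replicates 1 to 4 and 60.1, 56.4, 66.8 and 67.7 CPM in Klf4-transfected replicates 1 to 4. Both Klf4-transfected libraries of a batch lay above both controls of that batch, although the groups overlapped across batches. Klf4-transfected over control, the log2 ratio was 0.21 (SE 0.04, edgeR adjusted p = 8.27e-05), a level 1.15 times that of control. Without a batch term the same size of change had an adjusted p of 0.069 in edgeR.

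Keap1 (ENSMUSG00000003308, chromosome 9, 21229730 to 21239361, minus strand) encodes the sensor that targets Nrf2 for degradation. Its levels were 100.2, 95.3, 104 and 99.3 CPM in control and 97.3, 104, 93.3 and 101 CPM after Klf4, and the groups overlapped in both batches. Its log2 ratio was -0.01 (SE 0.04, adjusted p = 0.807 in edgeR). Among the scalings tried, Keap1 moved more than any other member: with an offset built from GC content and the length of exons it was called lower at -0.27 (edgeR adjusted p = 2.17e-07), and with factors set from genes of average log2 CPM of at least 6 its sign turned, to 0.02.

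Among the genes of glutathione supply, both subunits of the rate-limiting synthetic enzyme fell while the enzyme that regenerates reduced glutathione rose. Gclc (ENSMUSG00000032350, chromosome 9, 77754535 to 77794485, plus strand), the catalytic subunit of glutamate-cysteine ligase, had 48, 45.2, 46.9 and 52.5 CPM in control and 41.3, 42.7, 44.3 and 44.5 CPM in Klf4-transfected libraries. Every Klf4-transfected library lay below every control. The log2 ratio was -0.16 (SE 0.04, edgeR adjusted p = 0.0044, and 0.0528 without the batch term). Gclm (ENSMUSG00000028124, chromosome 3, 122245557 to 122270732, plus strand), the modifier subunit that raises the activity of Gclc, had 115, 115, 129 and 129.8 CPM in control and 102, 104, 116 and 111 CPM after Klf4. Its groups overlapped across batches but not within either one. The log2 ratio of -0.17 (SE 0.03, edgeR adjusted p = 6.1e-05) was close in size to that of Gclc.

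Gsr (ENSMUSG00000031584, chromosome 8, 33652523 to 33698163, plus strand) encodes glutathione reductase, which returns oxidised glutathione to its reduced form with NADPH. Control libraries had 97.1, 92.1, 103 and 105 CPM, and Klf4-transfected libraries had 107, 106.5, 118 and 117 CPM. No library of one group reached the range of the other. Gsr rose by a log2 ratio of 0.18 (SE 0.03, edgeR adjusted p = 4.82e-05), or 0.12 with the GC and length offset.

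Slc7a11 (ENSMUSG00000027737, chromosome 3, 49892526 to 50443614, minus strand) encodes the light chain of the cystine-glutamate exchanger, which brings in the cystine used for glutathione. It was the scarcest member, at 2.25, 2.53, 1.64 and 2.84 CPM in control and 2.32, 2.1, 1.26 and 1.18 CPM in Klf4-transfected libraries. In batch 1 the groups overlapped, and in batch 2 both Klf4-transfected libraries lay below both controls. Its ratio was -0.47 on the log2 scale (SE 0.18), and its edgeR adjusted p of 0.0514 lay just past the threshold. Leaving out control replicate 1, 2 or 3 or Klf4-transfected replicate 1 brought it under the threshold (edgeR adjusted p = 0.0204, 0.0353, 0.0312 and 0.0325). DESeq2 size factors (0.048) and the omission of the filter (0.011) did the same. The adjusted p stayed above the threshold in DESeq2's Wald test (0.0568) and limma-voom (0.0883). In edgeR it did so with the replicate number as a block (0.0781), with the GC and length offset (0.0742) and without a batch term (0.246). Without control replicate 4, the highest control, the log2 ratio was -0.23 with an edgeR adjusted p of 0.304. The edgeR adjusted p was 0.0549, 0.12 and 0.171 without Klf4-transfected replicates 2, 3 and 4. Control replicate 3 was the lowest control, with 81 counts against 106 to 137 in the other control libraries.

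In the thioredoxin branch, the reductase fell and sulfiredoxin did not pass. Txnrd1 (ENSMUSG00000020250, chromosome 10, 82833951 to 82897712, plus strand) encodes cytosolic thioredoxin reductase, a selenoenzyme that keeps thioredoxin reduced. It had 428, 439, 468 and 485 CPM in control and 389.8, 372, 429 and 418 CPM after Klf4. Within each batch the groups were apart, and Klf4-transfected replicate 3 exceeded control replicate 1 by less than 1 CPM across batches. Its log2 ratio was -0.18 (SE 0.03, edgeR adjusted p = 8.62e-06), the lowest adjusted p of the 10 members. Srxn1 (ENSMUSG00000032802, chromosome 2, 152105516 to 152111376, plus strand) encodes sulfiredoxin, which repairs overoxidised peroxiredoxins. Its levels were 130.2, 133, 124 and 134 CPM in control and 142, 121, 135 and 134 CPM after Klf4, with overlap in both batches. Its log2 ratio was 0.03 (SE 0.04, edgeR adjusted p = 0.597), and with the GC and length offset it was -0.10 and called lower (edgeR adjusted p = 0.0356), a call that was lost when the replicate block was added to the offset (0.0565).

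The remaining 2 targets moved in opposite directions. Hmox1 (ENSMUSG00000005413, chromosome 8, 75093621 to 75100589, plus strand) encodes haem oxygenase, the inducible enzyme of haem breakdown, and it is among the genes most readily induced by oxidative stress. Control libraries were tightly grouped at 37.1, 38.1, 37.5 and 37.6 CPM, and Klf4-transfected libraries had 33.6, 33.7, 31 and 35.4 CPM. All 4 Klf4-transfected libraries lay below all 4 controls. The log2 ratio was -0.17 (SE 0.04, edgeR adjusted p = 0.00412), and -0.30 with the GC and length offset.

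Nqo1 (ENSMUSG00000003849, chromosome 8, 107388225 to 107403206, minus strand) encodes a quinone reductase that is widely used as a readout of Nrf2 activity. It had 1.83, 2.47, 17.4 and 19.5 CPM in control and 4.2, 4.15, 21.6 and 23.4 CPM in Klf4-transfected libraries, on 86 to 1235 counts per library. In each batch both Klf4-transfected libraries exceeded both controls. Across batches the groups overlapped widely, with 10.3 ± 9.45 CPM in control and 13.3 ± 10.6 CPM after Klf4 (SD, n = 4). With the batch term the log2 ratio was 0.48 (SE 0.10, edgeR adjusted p = 0.00062), the largest rise of the 10 genes. Without it the log2 ratio was 0.38 and the adjusted p 0.784.

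For single values, two-sided exact permutation tests, which ignore batch and have 70 ways to split the 8 libraries evenly, gave their smallest possible p of 0.0286 for Gsr, Hmox1 and Gclc. Groups of 4 did not overlap for 26.1% of all tested genes. The p was 0.0571 for Txnrd1, 0.0857 for Gclm, 0.114 for Nfe2l2, 0.171 for Slc7a11, 0.514 for Nqo1, 0.629 for Srxn1 and 0.743 for Keap1. For the 7 called members the groups were apart in one direction within both batches, as they were for 39.5% of all tested genes.

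The effect was next estimated within each batch, on 2 libraries against 2. In batch 1 the same number of members, 7, was called, beside 24.4% of all tested genes, and in batch 2 it was 8, beside 29.6%, the additional gene being Slc7a11. The 7 members called in both batches had the same sign in each, beside 18.5% of all tested genes. For 6 of them the batches gave close values: 0.20 and 0.21 for Nfe2l2, 0.17 and 0.19 for Gsr, -0.15 and -0.15 for Gclc, -0.15 and -0.18 for Gclm, -0.19 and -0.16 for Txnrd1, and -0.16 and -0.16 for Hmox1 in batches 1 and 2. Nqo1 was 1.94 times the control level in batch 1 and 1.23 times in batch 2 (log2 0.95 and 0.30, edgeR adjusted p = 0.000129 and 0.00264). Slc7a11 went from a log2 difference of -0.12 in batch 1 (edgeR adjusted p = 0.737) to -0.87 in batch 2 (0.0072). The signs of Keap1 (0.03 and -0.06) and Srxn1 (-0.0046 and 0.0744) were opposite, and neither passed in a batch.

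**Figure D2:**
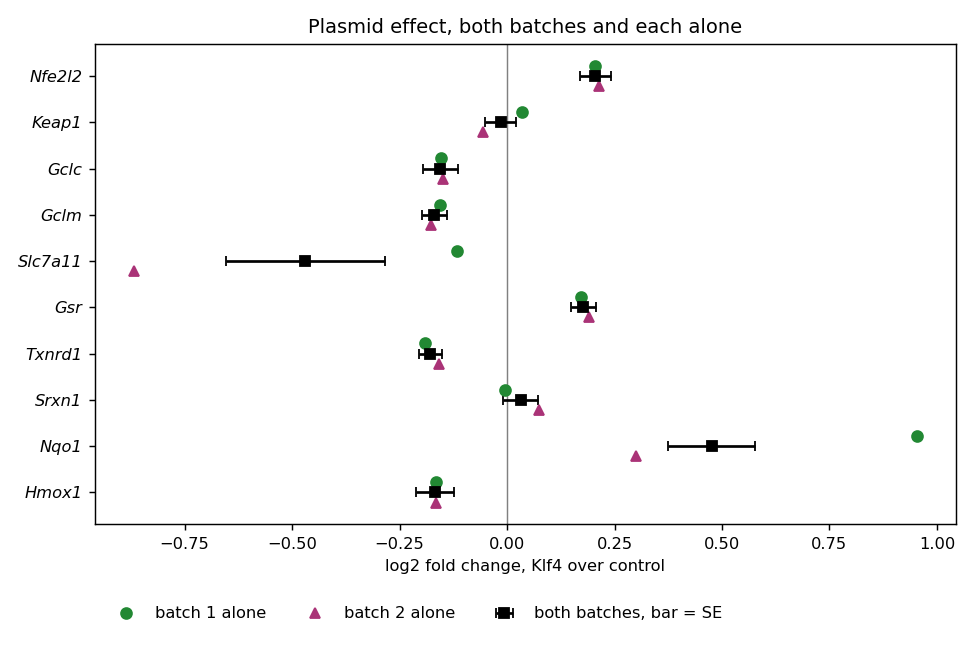
Log2 fold change of Klf4-transfected over control cells for each gene, with black squares for the fit on both batches (bar, SE), green circles for batch 1 alone and purple triangles for batch 2 alone. Values of the batches lie close together except for Nqo1 (0.95 and 0.30) and Slc7a11 (-0.12 and -0.87).

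The interaction of plasmid and batch tested that difference directly, and none of the 10 members passed it, beside 0.766% of all tested genes. Nqo1 came nearest, with an interaction of -0.67 (batch 2 against batch 1, SE 0.17, edgeR adjusted p = 0.0542, 0.000454 before adjustment). For Slc7a11 the interaction was -0.77 (SE 0.33, edgeR adjusted p = 0.366, 0.0247 before adjustment). These were the 2 members with an unadjusted p under 0.05, beside 10.6% of all tested genes. The other 8 had interactions between -0.11 and 0.06. Klf4 itself was 110 times the control level in batch 1 and 144 times in batch 2 (interaction 0.37, edgeR adjusted p = 0.0057). The part of this difference in the values of the members was not tested.

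Batch moved Nqo1 far more than the plasmid did. In control cells its mean was 2.15 CPM in batch 1 and 18.4 CPM in batch 2, and after Klf4 it was 4.18 and 22.5 CPM. The fitted batch difference was 6.56-fold (log2 2.71, SE 0.11, edgeR adjusted p = 7e-14), which ranked 5 by size among the 18266 tested genes and 1 among the 10485 whose average log2 CPM was at least 3. In all, 5 of the 10 members differed between batches, all higher in batch 2, beside 25.1% of all tested genes that differed in either direction. The other 4 were Nfe2l2 (log2 0.21), Gclm (0.15), Txnrd1 (0.14) and Gsr (0.14), each close in size to its plasmid effect. Of 59 genes that differed between batches in the other antioxidant lists described below, 46 were higher in batch 2. Gclc (0.09), Keap1 (0.00), Srxn1 (0.00), Hmox1 (-0.01) and Slc7a11 (-0.45) did not pass. What differed between the cultures or libraries of the batches is not stated in the labels.

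**Figure D3:**
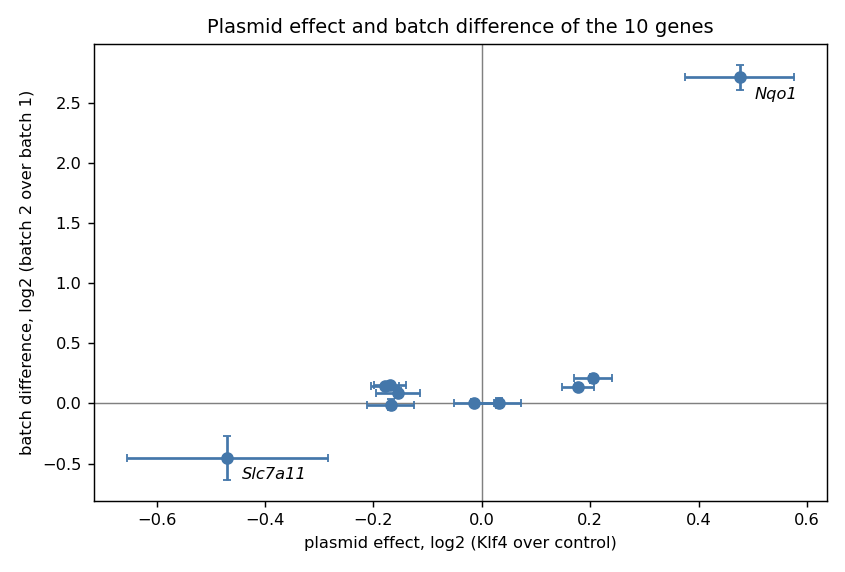
For each of the 10 genes, the plasmid effect (horizontal axis, log2) is plotted against the batch difference (vertical axis, log2, batch 2 over batch 1), with bars for the SE of each. Nqo1 stands alone at 0.48 and 2.71, and Slc7a11 lies lowest on both axes at -0.47 and -0.45.

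Genes whose pattern over the 8 libraries was most like that of the member of highest and lowest fold change among those called were looked up among 10484 others whose average log2 CPM was at least 3. For Nqo1 the nearest by Pearson correlation of log2 CPM were Eln (r = 0.992) and Tkt (0.99). Both were higher in batch 2, as Nqo1 was, with batch differences of 2.03 and 0.27 on the log2 scale. For Txnrd1 they were Crebl2 (0.992), Ttc3 (0.985) and Ddx21 (0.985), which had plasmid effects of -0.20, -0.16 and -0.13. Correlations over 0.95 were found for 76 and 78 genes, so that these are the top of a long list, and the points share group and batch. With group and batch means removed, the nearest were Mapk10 (0.996), Prkab2 (0.984) and Ccnc (0.982) for Nqo1, and Snx5 (0.987), Ddias (0.982) and Crebl2 (0.981) for Txnrd1. Here 16 and 22 genes had correlations over 0.95. With means fitted to only 8 libraries and so many genes searched, such values do not by themselves show shared variation.

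Other genes of the antioxidant system were taken from 8 lists arranged by role, 131 genes in all, of which 118 were tested. Together 55 changed, 33 higher and 22 lower, a share of 46.6% beside 36.6% of all tested genes, with a median log2 ratio of -0.02. The balance of directions depended on the scaling: 40 higher and 15 lower (72.7% higher) with factors from genes of average log2 CPM of at least 6, and 26 higher and 41 lower (38.8% higher) with the GC and length offset, against 60% higher as fitted. Over all genes the share of higher calls moved likewise, from 57.7% to 72.8% and to 38.4%. For the 10 members it was 3 of 7, 3 of 7 and 3 of 9. The called gene that fell most was Txnip, at -0.31, and several genes rose by far more.

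**Figure D4:**
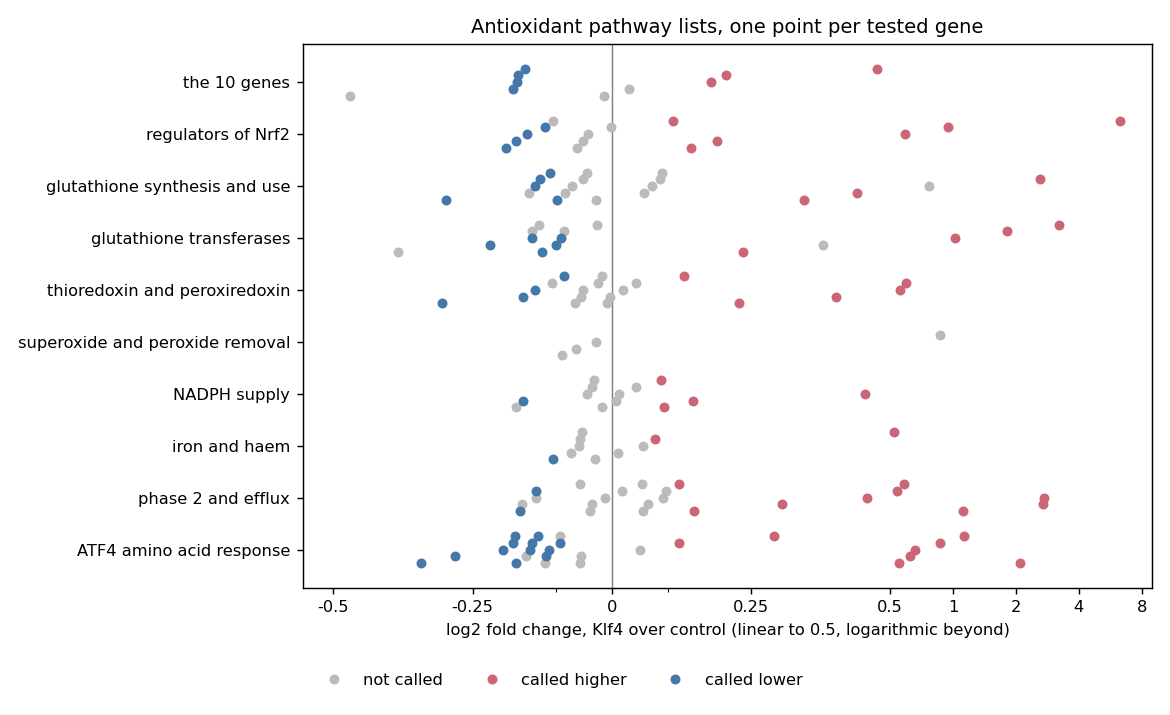
Log2 fold change of Klf4-transfected over control cells for every tested gene of each list, on an axis that is linear to 0.5 and logarithmic beyond, with red for called higher, blue for called lower and grey for not called. The called falls of the antioxidant lists and of the ATF4 list lie between -0.34 and -0.09, while rises reach 6.28 in Nfe2l3.

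Among 15 tested regulators of Nrf2, 6 rose and 4 fell (66.7% called, beside 36.6% of all tested genes). Mafk, a small Maf protein with which Nrf2 binds DNA, rose from 24.1 ± 3.63 to 46.3 ± 2.86 CPM (SD, n = 4; log2 ratio 0.95, SE 0.07, edgeR adjusted p = 1.09e-10). The groups did not overlap for Mafk, nor for 26.1% of all tested genes. Its rise was larger in batch 2 (1.2) than in batch 1 (0.71), with an adjusted interaction p of 0.00325 in edgeR. Nfe2l3, which encodes the related factor Nrf3, had 0, 2, 0 and 0 counts in control and 45, 39, 62 and 58 in Klf4-transfected libraries. Counts summed by group and scaled for library size gave a ratio of 97.5 (95% exact interval 26.6 to 810.3, covering counting error only). The edgeR fit, a different measure, gave a log2 ratio of 6.28 (SE 0.54, edgeR adjusted p = 2.37e-09). At 1 ± 0.161 CPM after Klf4 (SD, n = 4), Nfe2l3 remained far below Nfe2l2. Crebbp, a coactivator, fell from 122 ± 9.21 to 107 ± 2.79 CPM (SD, n = 4; log2 ratio -0.19, edgeR adjusted p = 0.000116).

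Of 19 tested genes of glutathione synthesis and use, 3 rose and 5 fell (42.1% called, beside 36.6% of all tested genes). Chac1, which encodes an enzyme that degrades glutathione, fell from 16 ± 1.39 to 13 ± 1.27 CPM (SD, n = 4; log2 ratio -0.30, SE 0.06, edgeR adjusted p = 0.000244), and by -0.49 with the GC and length offset. Ggt6, of the γ-glutamyltransferase family, rose on few counts, with 1 to 4 in each control and 13 to 30 in each library given Klf4 (log2 ratio 2.60, SE 0.48, edgeR adjusted p = 0.000142).

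Glutathione transferases, which join glutathione to electrophiles, were split, with 4 of 15 tested genes higher and 5 lower. The share called was 60%, beside 36.6% of all tested genes. Mgst3, a microsomal member, rose from 6.53 ± 0.668 to 22.9 ± 2.5 CPM (SD, n = 4), or 3.49 times control (log2 ratio 1.80, SE 0.08, edgeR adjusted p = 1.61e-14). Gsta1 rose by a log2 ratio of 3.20 (SE 0.59, edgeR adjusted p = 0.00014) on 0 to 5 counts in each control and 14 to 29 in each library given Klf4, and near-identical copies of the family could share its reads. Gstt2 fell from 14.1 ± 1.79 to 12.1 ± 1.03 CPM (SD, n = 4; log2 ratio -0.22, edgeR adjusted p = 0.00976), and without the batch term its adjusted p was 0.134.

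In the thioredoxin and peroxiredoxin list 5 of 19 tested genes rose and 4 fell (47.4% called, beside 36.6% of all tested genes). Txnrd3, a further thioredoxin reductase, rose from 12.2 ± 2.63 to 18.3 ± 2.49 CPM (SD, n = 4; log2 ratio 0.59, SE 0.06, edgeR adjusted p = 9.15e-08), the opposite direction to Txnrd1. Txnip, which encodes a glucose-induced protein that binds thioredoxin, fell from 259 ± 36.5 to 208 ± 4.91 CPM (SD, n = 4; log2 ratio -0.31, SE 0.05, edgeR adjusted p = 1.46e-05). The fall of Txnip was -0.48 in batch 1 and -0.12 in batch 2 (edgeR interaction test, adjusted p = 0.000314).

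None of the 4 tested genes for the removal of superoxide and peroxide was called by edgeR, DESeq2 or limma-voom, and 1 had an unadjusted p under 0.05 in edgeR. Over all tested genes edgeR called 36.6%. Named outside the rule, after their values were seen, were Sod1 (506 CPM in control, log2 ratio -0.03), Sod2 (134 CPM, -0.07), Ccs (27.6 CPM, -0.09) and catalase, Cat. Cat had 0.0811 to 0.267 CPM in control and 0.155 to 0.475 CPM in Klf4-transfected libraries, on 4 to 25 counts each, and its log2 ratio of 0.86 had an edgeR adjusted p of 0.151.

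NADPH supply, on which both reductase systems draw, had 4 genes higher and 1 lower of 13 tested. That share of 38.5% was close to the 36.6% of all tested genes called. Me1, malic enzyme, rose from 98.7 ± 8.83 to 136 ± 22.1 CPM (SD, n = 4; log2 ratio 0.46, SE 0.04, edgeR adjusted p = 1.07e-08). For iron and haem, 2 of 10 tested genes rose and 1 fell (30% called, below the 36.6% of all tested genes). Blvrb, which encodes biliverdin reductase B, rose from 11.7 ± 0.861 to 16.9 ± 1.78 CPM (SD, n = 4; log2 ratio 0.52, SE 0.06, edgeR adjusted p = 4.15e-07), while Hmox1 fell.

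The list named for phase 2 enzymes and efflux pumps held 9 higher and 2 lower of 23 tested genes (47.8% called, beside 36.6% of all tested genes). It also holds enzymes of other kinds. Cyp2s1, among them, encodes a cytochrome P450, which is neither a phase 2 enzyme nor an efflux pump. Cyp2s1 rose from 12.9 ± 3.73 to 85.1 ± 17.3 CPM (SD, n = 4), or 6.63 times control (log2 ratio 2.73, SE 0.05, edgeR adjusted p = 2.41e-21). Cbr3, a carbonyl reductase, rose from 16 ± 1.29 to 34.5 ± 4.26 CPM (SD, n = 4; log2 ratio 1.11, SE 0.05, edgeR adjusted p = 1.51e-14). Neither gene had overlapping groups, which also held for 26.1% of all tested genes.

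The amino acid response driven by ATF4 was listed as well, since Slc7a11 and glutathione genes also belong to it. Of 26 tested genes 20 changed, 8 higher and 12 lower (76.9% beside 36.6% of all tested genes), with a median log2 ratio of -0.10. With factors from highly expressed genes the split was 9 and 9, and with the GC and length offset 7 and 15. Rises were found in Atf3, a stress-induced repressor (17 ± 3.1 to 36.9 ± 1.17 CPM, SD, n = 4, log2 ratio 1.13, edgeR adjusted p = 2.4e-11), and Cebpb (44.3 ± 4.99 to 81.1 ± 14.3 CPM, SD, n = 4, 0.86, 1.17e-13). Gdf15, a stress-induced secreted factor, rose from 0.388 ± 0.121 to 1.7 ± 0.624 CPM (SD, n = 4; log2 ratio 2.08, edgeR adjusted p = 1.7e-06). Nupr1 (0.66) and Eif4ebp1 (0.62) also rose. Ddit3, which encodes the stress factor CHOP, fell from 34 ± 3.71 to 27.9 ± 2.06 CPM (SD, n = 4; log2 ratio -0.28, edgeR adjusted p = 1.22e-05). Atf5 (-0.20, or -0.42 with the GC and length offset), Psph of serine synthesis (-0.18) and Stc2 (-0.34) fell too. Stc2 lost its call without the batch term (edgeR adjusted p = 0.123) and without Klf4-transfected replicate 1 (0.0648).

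Overlaps with other annotated genes leave some counts uncertain, because the strand setting of the counting is not given in the sources used here. Nqo1, Hmox1, Gclc and Srxn1 overlap no other gene of the annotation. The other 6 members do, Txnrd1 with Eid3 on its own strand among them and Keap1 with Gm16754 on the opposite strand. Reads of Keap1 and Gm16754 cannot be told apart without strand. The same holds for genes of the other lists that overlap a neighbour.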

How the data were processed

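Polyadenylated RNA of 8 MIN6 libraries had been counted by the authors, and the deposited values are whole-number read counts per gene, 1 column per library, neither normalised nor pooled. Per the submitters' processing notes, FastQC, STAR, featureCounts and edgeR were used with the mm10 build, without roles, versions or settings given in the sources used here. Cutadapt trimming is known only from the name given to the deposited counts. All 55536 identifiers and symbols matched GENCODE M21 (GRCm38), which gave coordinates, exonic lengths and overlaps.

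Counts were analysed in edgeR 4.0.16 (limma 3.58.1, R 4.3.3). The filter filterByExpr with a minimum count of 10 kept 18266 genes and removed 37270. TMM factors, glmQLFit and glmQLFTest with terms for batch and plasmid followed, since the series text states that batch was corrected for in edgeR. Benjamini-Hochberg adjustment ran over all tested genes, with calls under 0.05. The SE was the log2 ratio divided by the square root of its F. CPM are TMM-scaled. The members and lists were chosen with earlier results of these data known. Named beyond the members were, of the other lists, the 8 called genes of largest change in each direction with average log2 CPM of at least 1, and each list's called gene of largest change. A symbol on 2 rows (Ddit3, Nnt) was read from the row with more counts. Sequences were RefSeq's, build GRCm38.p6. Replicate numbers come from the titles; deviations from group means correlated at 0.46 to 0.61 between same-numbered libraries over 10485 genes, and at -0.05 and 0.08 once batch means were removed in batches 1 and 2, so that the pairing was that of batch. No 2 libraries within a group agreed to within counting error (chi-square per degree of freedom 3.96 to 21.1). Alternatives were no batch term, the replicate number as a block, DESeq2 1.42.0 size factors and Wald test, limma-voom, other filters and scalings, a GC and length offset (loess span 0.3), a threshold of 0.01 and the omission of each library. The procedure was tested on simulated data. A gene among those most like Nqo1 in pattern is not reported here. Figures were made in Python 3.11.15.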

Additional observations from a re-analysis of the deposited data

Results flagged for a closer look

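In 68 checks of whether 1 library stood far apart within its group, 4 did, and such a check singles one out in about 1 of 20 groups by chance. The total of Klf4-transfected replicate 2 was 45417853 counts, against 51891997 to 52731176 in the other libraries of its group. The same library had 110.8 CPM of Crebbp, against 105 to 105.3 CPM in the other 3. Control replicate 2 had 0.0411 CPM of Nfe2l3, which is 2 counts, where the other controls had 0. Control replicate 4 had 0.0207 CPM of Ggt6, which is 1 count, against 0.0811 to 0.085 CPM in the others.

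Batches differed in the response to the Klf4 plasmid for 3 of the genes named from the other lists, by edgeR's interaction test with adjustment over all tested genes. The level of Klf4 itself differed too, with an interaction of 0.37 (edgeR adjusted p = 0.0057), and its part in these 3 was not tested. For the 3 genes the interaction (batch 2 against batch 1, log2) was 0.47 for Atf3 (edgeR adjusted p = 0.0191), 0.48 for Mafk (0.00325) and 0.35 for Txnip (0.000314), so that Atf3 and Mafk rose more and Txnip fell less in batch 2.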

How the results depend on the processing

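Of 623 alternative values for single named genes, 602 kept their direction and their side of the threshold, 7 lost the call, 8 gained it and 6 turned sign. Leaving out the batch term lowered the counts of called genes to 4 of the members, 34 of the other pathway genes, 12 of the ATF4 list and 4116 of all genes, and among the members it removed the calls of Nfe2l2, Nqo1 and Gclc. Sign turned for Keap1 with factors from genes of average log2 CPM of at least 6 (0.021), and for Srxn1 with the GC and length offset (-0.10, and -0.10 with the replicate block, where the call of the offset was lost). Leaving out 1 library gave -0.055 to 0.0065 for Keap1 (above 0 without Klf4-transfected replicate 3) and -0.018 to 0.076 for Srxn1 (below 0 without control replicate 3 or Klf4-transfected replicate 1). When the replicate block replaced the batch term, 7 members, 52 other pathway genes, 20 ATF4 genes and 6284 genes in all were called, and no call of a named gene changed. The cause of these changes was not tested. Counts were lowest, among the members, for Slc7a11 (62 to 137 per library) and for Nqo1 in batch 1 (86 to 217), and whether depth set their spread was not tested.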
